A study of Caenorhabditis elegans with 12 samples.

Results

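Strong *nuo-5* RNAi was compared with the empty vector control on 8 of the 12 arrays of the series, 4 of each group, over all 25478 genes that could be named, each read by its brightest probe set. Larvae of the strong group were N2 worms of the filial generation fed bacteria that express double-stranded RNA against *nuo-5*, and control larvae were N2 worms fed bacteria with the vector pL4440 alone, which the labels call WT. Both groups were kept at 20 °C and washed off their plates at the L3 stage, and total RNA of whole larvae was read on Affymetrix Gene ST arrays for *C. elegans*, whose version differs between the methods and the labels. The third group, mild RNAi in the parental generation (4 arrays), entered the fit only to estimate the spread. The labels name DMSO at 0.25%, which the methods give as the control for lutein. None of the 12 arrays carries a lutein label, so DMSO at 0.25% was taken as shared by strong and control larvae. The study describes strong *nuo-5* RNAi as arresting larvae around this stage, so that RNAi and altered development come together in this group, and no source used here gives the generation of the control larvae. In whole larvae, fewer cells of a type and less RNA per cell cannot be told apart.

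*nuo-5* encodes the worm counterpart of NDUFS1, a core subunit of respiratory complex I, which passes electrons from NADH to ubiquinone and helps to drive ATP synthesis. When the respiratory chain fails, worms are known to slow or stop their development and to turn on detoxification, autophagy, innate immune and hypoxia-related genes. A whole larva holds intestine, epidermis, muscle, neurons and a growing germ line, and its epidermis remakes the cuticle at every molt, so genes of molting, cuticle and germ line also follow the age of a larva closely.

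The RNAi target was lower on every strong array. *nuo-5* had log2 values of 6.95, 7.09, 7.22 and 6.89 on the strong arrays, against 8.29, 8.56, 8.43 and 8.42 on the control arrays, always in the order I, III, IV and V. The difference of −1.39 (standard error 0.14) is 2.62-fold lower and passed in limma (adjusted p = 0.000154), and the two-sided exact permutation test over these 8 arrays gave p = 0.0286, the smallest that 4 against 4 arrays can give. The value of strong III lay within the range of the other strong arrays.

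Of the 25478 genes, 2215 (8.69%) were higher and 1425 (5.59%) lower under strong RNAi (limma over 12 arrays, Benjamini-Hochberg adjusted p under 0.05). Without strong III the same fit called 2617 genes (10.3%) higher and 1796 (7.05%) lower, and 3343 of the 3640 genes first called were called in the same direction by both fits. The counts per gene list that follow stand beside these shares of all genes, 8.69% higher and 5.59% lower. The lower count was 842 without strong IV, 829 without strong V and 941 without control V. Arrays correlated at 0.960 to 0.981 within the strong group, against 0.975 to 0.985 within the control group. Strong III correlated at 0.963 to 0.973 with the other strong arrays and at 0.969 to 0.974 with the control arrays. Array medians lay between 3.41 and 3.57, and the median difference over all named genes was −0.05.

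The genes were then split by whether strong III shared the change. A gene counted as raised or lowered on all 4 strong arrays when it was called and each strong array lay beyond each control array. This held for 1951 raised genes (7.66% of those tested) and 1218 lowered genes (4.78%). A gene counted as not shared by strong III when strong I, IV and V lay beyond every control array, strong III did not, and the fit without strong III called it. This held for 564 raised genes (2.21%) and 523 lowered genes (2.05%), of which 157 and 140 were also called with all arrays. The split uses the values of the comparison itself and is a description with no test. At its edge, *samp-1* was inside with strong III 1.22e-05 above the highest control array, and *nanp-1* was outside with strong III 0.0001114 below it. A further 107 called genes that were higher and 67 that were lower overlapped between the groups in another way.

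The plot of strong III against the other strong arrays shows both sets. Genes raised on all 4 strong arrays had a median difference from the control mean of 0.85, 0.75, 1.01 and 1.25 on strong I, III, IV and V, and genes lowered on all 4 had −0.71, −0.57, −0.8 and −1.05. Raised genes not shared by strong III had 0.8, 0.03, 0.85 and 0.95, and lowered ones −0.64, −0.11, −0.77 and −1.04. The difference on strong III, as a share of the mean difference on strong I, IV and V, was under 0.25 for 97 of the 1951 raised genes and 59 of the 1218 lowered genes, and 1 or more for 447 of the raised genes. Some genes counted as raised on all 4 arrays therefore moved little on strong III, yolk protein and adult collagen genes among them. Taking each strong array in turn as the one that does not share gave 369 raised and 195 lowered genes for strong I, 40 and 21 for strong IV, and 38 and 14 for strong V. With at least 1 on the log2 scale on the 3 sharing arrays and at most 0.5 on the other, the counts were 152 and 106 for strong III, 18 and 16 for strong I, 3 and 4 for strong IV, and 8 and 0 for strong V.

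**Figure D1:**
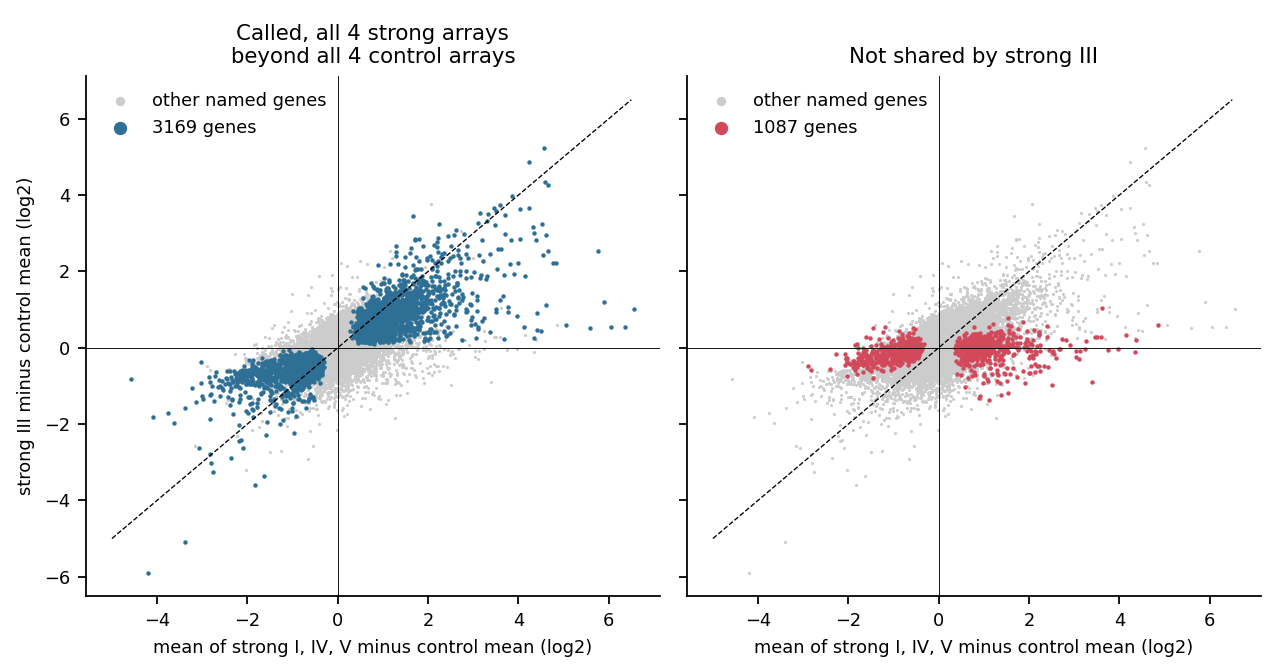
Difference of strong III from the control mean (vertical, log2) against the mean difference of strong I, IV and V (horizontal, log2), 1 point per named gene, with the 1951 raised and 1218 lowered genes of all 4 strong arrays in blue (left) and the 564 raised and 523 lowered genes not shared by strong III in red (right). The dashed line marks equal differences; the red genes lie near 0 on the vertical axis, and a tail of blue genes at the far right also lies below 1.

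**Figure D2:**
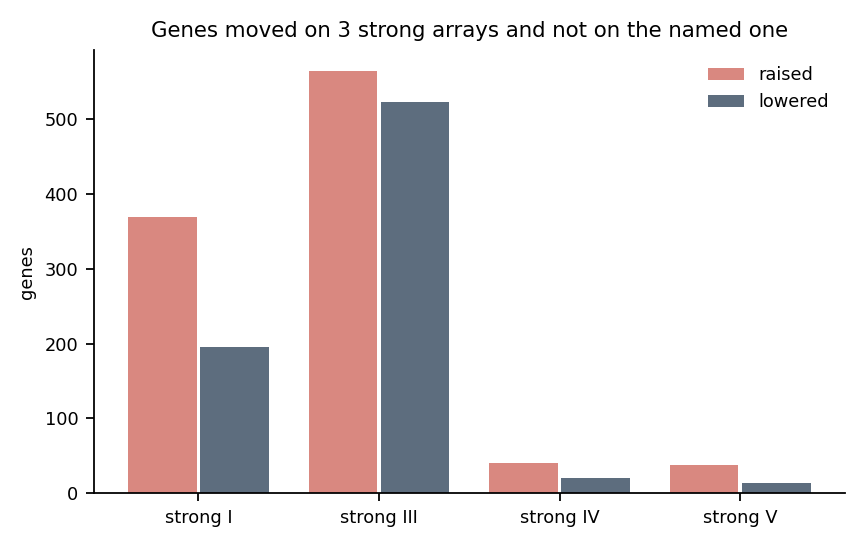
Genes moved on 3 strong arrays and not on the named one (vertical, number of genes), raised and lowered, with each strong array in turn as the one that does not share. Strong III has 564 raised and 523 lowered genes and strong I 369 and 195, against at most 40 for strong IV or V.

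The largest rises and falls on all 4 strong arrays differed in how far strong III took part. Of the 15 largest rises, the tetraspanin *tsp-1* had log2 values of 8.07, 6.08, 9.91 and 9.91 on the strong arrays, against 3.42, 3.69, 3.67 and 3.38 on the control arrays, and Y37H2A.14 had 10.42, 8.24, 11.01 and 11.15 on the strong arrays, against 7.37, 6.92, 4.22 and 5.6 on the control arrays. *spig-20* had 9.41, 4.87, 8.7 and 4.13 on the strong arrays, against 2.59, 2.47, 2.84 and 2.74 on the control arrays, so that strong I and IV carried most of its difference. B0348.2 differed by 4.13. Of the 15 largest falls, Y48E1B.8 had log2 values of 4.32, 7.97, 5.24 and 3.07 on the strong arrays, against 9.03, 9.01, 8.1 and 8.99 on the control arrays, and strong III took a share of 0.18. K01D12.9 had 7.28, 8.68, 6.82 and 5.84 on the strong arrays, against 10.37, 10.16, 10.42 and 10.63 on the control arrays (share 0.46), whereas the adjacent K01D12.8 had 2.35, 2.69, 2.92 and 2.67 on the strong arrays, against 5.19, 5.24, 5.32 and 6.13 on the control arrays (share 0.98). F55G11.2 differed by −2.85 with a share of 1.08, *idpc-3* by −2.69 with a share of 0.33 and the collagen *col-162* by −2.59 with a share of 0.66.

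Neuropeptide genes were raised on all 4 strong arrays. FMRFamide-related peptides, which modulate muscle, feeding and egg-laying circuits, were higher for 27 of 31 *flp* genes and lower for 0, 24 of them on all 4 strong arrays, beside 8.69% of all genes (26 higher without strong III). The list had a median difference of 1.21, and 0.65, 0.98, 1.45 and 1.72 on strong I, III, IV and V. *flp-27* had log2 values of 7.92, 8.34, 8.67 and 8.91 on the strong arrays, against 6.57, 6.55, 6.76 and 6.44 on the control arrays, a difference of 1.88 ± 0.27. *flp-3* had log2 values of 7.69, 7.45, 8.35 and 8.8 on the strong arrays, against 5.8, 6.2, 6.38 and 5.98 on the control arrays. Every strong array lay above every control array for both, with the lowest strong values on I or III and the highest on V. *flp-15* differed by 1.74 and *flp-26* by 1.68. Of 82 other neuropeptide genes 46 were higher and 1 lower (46 and 1 without strong III, and 0 lower without strong IV, strong V or control V), with a median of 0.84. They included *nlp-2* (2.08), *pdf-2*, a pigment-dispersing factor (1.71), *nlp-68* (1.71) and *nlp-35* (1.63). *nlp-40*, an intestinal peptide that times the defecation motor program, had log2 values of 9.19, 9.01, 9.33 and 9.24 on the strong arrays, against 8.81, 8.85, 8.66 and 8.65 on the control arrays, a difference of 0.45 ± 0.11.

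The enzymes that ripen these peptides moved with them. Of 16 genes of neuropeptide processing 6 were higher and 0 lower, all 6 on all 4 strong arrays. *egl-3*, the proprotein convertase that cuts the precursors, had log2 values of 10.46, 10.69, 11.199 and 11.24 on the strong arrays, against 9.58, 9.63, 9.92 and 9.52 on the control arrays (difference 1.23 ± 0.19). *egl-21*, the carboxypeptidase that trims the cut ends, differed by 1.33, *pghm-1*, which starts the amidation of the peptides, by 1.27, and *sbt-1*, the 7B2 chaperone of *egl-3*, by 1.42. Insulin-like peptide genes were higher for 9 of 40 and lower for 1, among them *ins-11* (2.29), *ins-24* (2.01), *ins-30* (1.43) and *ins-17* (1.19). The higher count was 5 without strong IV, 4 without strong V, 5 without control I and 4 without control V, and the lower count 2 without strong III.

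The calls among genes of the synapse itself depended on single arrays. Of 50 genes of synaptic vesicles and transmitters 9 were higher and 0 lower, with list medians of −0.07, 0.31, 0.37 and 0.55 on strong I, III, IV and V, so that strong I was the array nearest control. The count was 14 without strong I, 3 without strong IV or V, and 4 without control I, III or V. *unc-18*, the Munc18 protein that readies vesicles for fusion, had log2 values of 7.68, 7.42, 7.35 and 7.61 on the strong arrays, against 6.42, 6.46, 6.4 and 6.36 on the control arrays (difference 1.11 ± 0.14) with no overlap between the groups. *tbh-1*, which makes octopamine, differed by 1.97, with strong III at 3.59 and the other strong arrays at 5.1 to 6.16. Of 19 synaptic adhesion and scaffold genes 5 were higher (8 without strong I, 3 without strong IV, control I or control III, 2 without strong V or control IV, and 1 lower without strong III). The neurexin gene *nrx-1* had log2 values of 6.45, 7.04, 7.13 and 8.0 on the strong arrays, against 5.98, 6.32, 6.35 and 6.44 on the control arrays (difference 0.88 ± 0.25, adjusted p = 0.0376), and *madd-4*, a secreted organizer of synapses, differed by 0.61 ± 0.15. The neuroligin gene *nlg-1* had log2 values of 6.89, 7.28, 6.95 and 7.22 on the strong arrays, against 6.89, 6.75, 7.36 and 7.12 on the control arrays, groups that overlap (difference 0.06 ± 0.16, adjusted p = 0.865). Differences for *dlg-1* (0.32 ± 0.12), *unc-10* (0.56 ± 0.25) and *vps-35* (0.05 ± 0.13) did not pass (adjusted p = 0.10, 0.159 and 0.855), and the globin gene *glb-10* rose by 0.87 ± 0.23. The calls of *nrx-1* and *glb-10* were lost after quantile normalization. *unc-17* had no probe set with a single gene symbol and is not reported.

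Channels and stage timing genes were tested as further lists. Of 105 ligand-gated channel genes 13 were higher (12.4%, beside 8.69% of all genes) and 4 lower (3.81%, beside 5.59%), with list medians of −0.07, 0.19, 0.16 and 0.28 on the strong arrays. The glutamate-gated chloride channel *glc-1* had log2 values of 8.55, 7.89, 8.73 and 8.41 on the strong arrays, against 6.72, 6.83, 6.38 and 5.89 on the control arrays, and the acetylcholine receptor subunit *acr-12* differed by 1.21. *lgc-22* (−1.39) and *lgc-27* (−1.29) fell. The higher count was 21 without strong I, 6 without strong IV or V and 8 without control V, and the lower count 6 without strong III, 1 without strong IV, strong V or control IV and 2 without control III or V. Of 17 heterochronic genes, which time larval stages, 4 were higher and 0 lower (1 lower without strong I, 2 without strong III). *lin-14*, whose product marks early larval stages, had log2 values of 7.07, 7.78, 7.87 and 8.1 on the strong arrays, against 7.14, 6.79, 6.58 and 6.87 on the control arrays, and *lin-41* (0.97), *lin-66* (0.69) and the nuclear receptor *daf-12* (0.63) also rose.

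Among regulatory families, nuclear hormone receptors and F-box A genes held many rises. Nuclear hormone receptors, a family of ligand-regulated transcription factors greatly expanded in nematodes, were higher for 82 of 276 genes and lower for 3 (53 higher without strong IV, and 5 lower without strong III). *nhr-193* had log2 values of 6.89, 6.95, 6.49 and 6.37 on the strong arrays, against 4.39, 3.9, 3.26 and 4.48 on the control arrays, and *nhr-61* differed by 2.41. The 3 that fell include the adjacent receptor genes *nhr-234* (−2.2) and *nhr-235* (−2.49), and each had all 4 strong arrays below all control arrays. F-box A genes, which encode likely substrate adaptors of ubiquitin ligases, were higher for 43 of 188 and lower for 1 (2 lower without strong III, 0 without strong IV, strong V, control III or control V), with *fbxa-24* (3.74), *fbxa-92* (3.11), *fbxa-59* (2.83) and *fbxa-30* (2.4) in front, whereas 6 of 152 F-box B and C genes were higher (3.95%, below the 8.69% of all genes) and 0 lower. Whether these families differ from each other was not tested. Of 1299 chemoreceptor genes 30 were higher and 3 lower, beside 8.69% and 5.59% of all genes (17 higher without strong V, 6 lower without strong I, and 1 lower without strong IV or V).

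Signalling genes of stress and growth followed the same direction. In the p38 and SKN-1 pathway, which drives responses to pathogens and oxidants, 8 of 14 genes were higher and 0 lower, all 8 on all 4 strong arrays (5 without strong IV, strong V or control IV). *vhp-1*, the phosphatase that switches off the kinases of this pathway, had log2 values of 9.23, 9.27, 9.89 and 10.33 on the strong arrays, against 8.31, 8.22, 8.17 and 8.02 on the control arrays (difference 1.5 ± 0.21). *tir-1*, its upstream adaptor, differed by 0.78, the Nrf-like factor *skn-1* by 0.69 and its inhibitor *wdr-23* by 0.74. Members that act in opposite ways within the pathway thus rose together. Of 17 genes from the insulin receptor to FOXO 6 were higher and 0 lower, including the receptor *daf-2* (1.09), the receptor substrate *ist-1* (1.48) and the FOXO factor *daf-16* (1.02), which the receptor restrains. *daf-16* had log2 values of 8.34, 8.32, 8.51 and 8.64 on the strong arrays, against 7.6, 7.46, 7.26 and 7.4 on the control arrays. Of 19 TGF-beta genes 5 were higher and 0 lower (8 higher without strong I or strong III, 3 without strong V or control I, and 1 lower without strong III). They included the ligand *daf-7*, which signals food and growth to the larva (1.51), the SMAD *daf-3*, which the *daf-7* pathway opposes (0.9), the receptor *sma-6* (0.59, not called after quantile normalization) and the Schnurri-like cofactor *sma-9* (0.72). Of 21 AMPK and TOR genes 5 were higher and 1 lower (3 higher without strong IV or V, and 0 lower without any 1 array other than strong IV), with the AMPK gamma subunit *aakg-4* at 6.09, 5.56, 6.07 and 6.75 on the strong arrays, against 3.96, 4.01, 4.06 and 4.2 on the control arrays.

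Several of the largest rises were fully shared by strong III, detoxification genes among them. *fmo-2*, a flavin-containing monooxygenase, had log2 values of 7.06, 6.86, 6.43 and 6.78 on the strong arrays, against 2.78, 2.94, 2.81 and 3.06 on the control arrays, a difference of 3.88 ± 0.19, and strong III was within the range of the other strong arrays. Among the 15 largest rises on all 4 arrays, F22B3.7 had log2 values of 7.72, 8.0, 6.72 and 7.55 on the strong arrays, against 2.52, 2.42, 3.1 and 2.98 on the control arrays and B0205.14 of 10.03, 9.59, 9.79 and 10.14 on the strong arrays, against 5.11, 5.67, 5.44 and 5.07 on the control arrays. Among cytochromes P450, *cyp-13A8* (4.52) had a share of strong III of 0.95 and *cyp-13A7* (4.4) of 1.15. The claudin-like *clc-11* (4.21) and F33H12.7 (4.19) had 0.71 and 0.64. Among genes that the study names, T16G1.6 differed by 3.37 ± 0.19 and B0205.13 by 2.09 ± 0.17. Of 74 cytochrome P450 genes 20 were higher and 5 lower. Glutathione S-transferases, which couple toxins to glutathione, were higher for 11 of 46 and lower for 2 (4 lower without strong I, 1 without control V). The 4 largest of these rises were *gst-14*, *gst-15*, *gst-17* and *gst-18* of a gene cluster on chromosome II, at 1.63, 2.04, 1.86 and 1.6. UDP-glucuronosyltransferases, which attach sugars to toxins, were higher for 13 of 67 and lower for 7, with *ugt-18* (2.74), *ugt-2* (2.74) and *ugt-62* (2.35) in front. Probes of near-identical family members may pick up RNA of each other, which was not tested.

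Genes for recycling cell contents and shaping mitochondria included further shared rises. Of 32 autophagy and mitophagy genes 12 were higher, 11 of them on all 4 strong arrays, and 0 lower (7 higher without strong V, and 1 lower without strong III or control IV), and 4 more were raised and not shared by strong III. *sqst-1*, the p62-like cargo receptor, had log2 values of 9.66, 9.02, 10.22 and 10.51 on the strong arrays, against 7.67, 7.53, 7.82 and 7.39 on the control arrays. *allo-1*, a receptor for paternal organelles, differed by 2.06, the BNIP3-like mitophagy receptor *dct-1* by 1.55 and *atg-16.2* by 1.12. Of 12 genes of mitochondrial fission, fusion and transport 3 were higher and 0 lower, and all 3 act in fission. *drp-1*, the dynamin-related protein that cuts mitochondria, had log2 values of 9.88, 9.81, 9.25 and 9.74 on the strong arrays, against 8.43, 8.37, 8.25 and 8.34 on the control arrays, *mff-2* differed by 2.15 ± 0.21 and *fis-2* by 0.46 ± 0.11. In the response to hypoxia and sulfide 5 of 11 genes were higher and 1 lower, with *nhr-57*, a target of HIF-1, at 2.14 and the sulfide oxidase *sqrd-1* at 1.21. The 1 lower gene of this list fell on all 4 strong arrays, at −1.53.

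Stress proteins other than these moved as single genes. *mtl-1*, a metallothionein, had log2 values of 9.09, 7.43, 10.35 and 9.22 on the strong arrays, against 4.38, 5.03, 5.83 and 4.76 on the control arrays. The superoxide dismutases *sod-4* and *sod-3* rose by 2.01 ± 0.23 and 1.42 ± 0.24. Of 36 antioxidant and metallothionein genes 5 were higher and 3 lower (6 lower without strong III). Of 19 cytosolic heat shock genes 2 were higher and 4 lower (2 lower without strong IV, strong V, control III or control V), with *sip-1*, a small heat shock protein, at 1.87 and *hsp-12.1* at −1.28. In the endoplasmic reticulum stress list 3 of 22 genes were lower and 2 higher, and the protein disulfide isomerases *pdi-1* (−0.72), *pdi-2* (−0.7, not called after quantile normalization) and *pdi-6* (−0.54) were those that fell. The lower count was 6 without strong I and 5 without strong III, and the higher count 1 without strong I or control IV and 0 without strong III, strong IV, strong V, control III or control V.

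**Figure D3:**
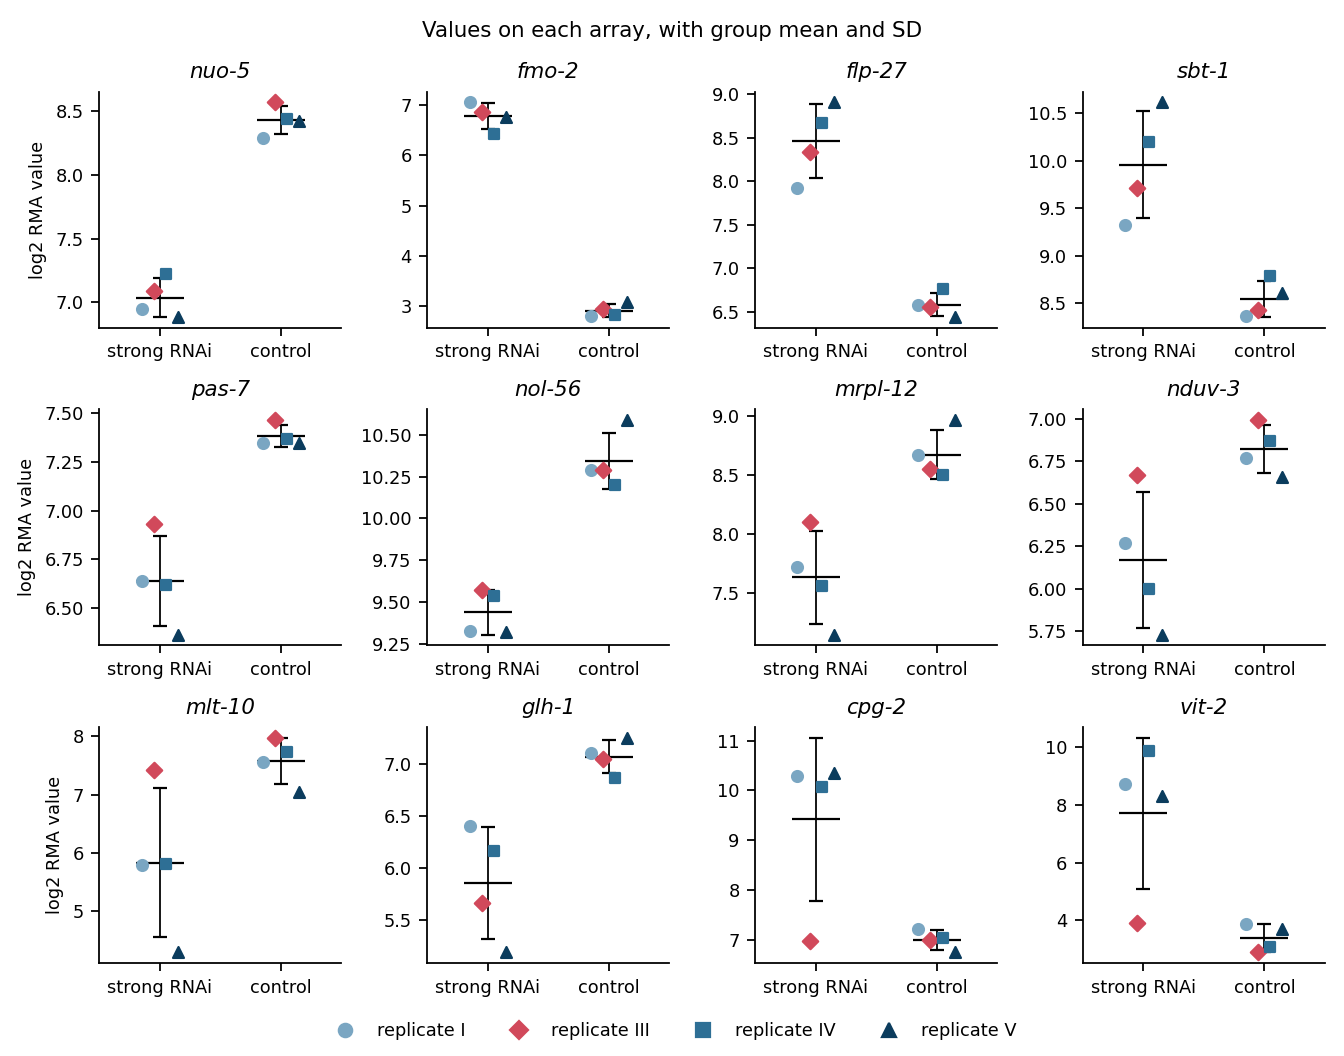
Log2 RMA values (vertical) of 12 genes on each array, strong RNAi left and control right, with a marker per replicate number and the mean and SD of 4 arrays per group. Strong III (red diamond) lies with the other strong arrays for *nuo-5*, *fmo-2*, *flp-27* and *nol-56*, and near the control arrays for *mlt-10*, *cpg-2* and *vit-2*.

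Every proteasome subunit and translation factor that was called was lower, and lower on all 4 strong arrays. Of 33 proteasome subunits 19 were lower and 0 higher, beside 5.59% of all genes, and all 19 were lowered on all 4 strong arrays. The list medians were −0.35, −0.46, −0.32 and −0.46 on strong I, III, IV and V (10 lower without strong V, 11 without control III and 12 without control IV). *pas-7*, an alpha subunit of the core, had log2 values of 6.64, 6.93, 6.62 and 6.36 on the strong arrays, against 7.35, 7.47, 7.37 and 7.35 on the control arrays (difference −0.74 ± 0.13). The ATPase *rpt-2* differed by −0.73, the beta subunit *pbs-2* by −0.62 and the alpha subunit *pas-4* by −0.55. Of 38 translation initiation and elongation factors 21 were lower and 0 higher, again all 21 on all 4 strong arrays, with a median of −0.48. They included *iff-1*, an eIF5A (−1.04), *eif-3.I* (−0.9), *eif-2Bgamma* (−0.86) and *eif-6* (−0.83). *eif-6*, which keeps the large ribosomal subunit free until it is needed, had log2 values of 7.45, 7.48, 7.5 and 7.35 on the strong arrays, against 8.26, 8.25, 7.99 and 8.59 on the control arrays.

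Ribosome biogenesis genes were mostly lower where they were called. Of 55 genes 20 were lower (36.4%, beside 5.59% of all genes) and 6 higher (10.9%, near the 8.69% of all genes). The list medians were −0.35, −0.28, −0.26 and −0.38 on the strong arrays. *nol-56* had log2 values of 9.33, 9.57, 9.53 and 9.32 on the strong arrays, against 10.29, 10.29, 10.202 and 10.59 on the control arrays and *nol-58* of 9.64, 9.81, 9.75 and 9.65 on the strong arrays, against 10.54, 10.58, 10.51 and 10.82 on the control arrays; both belong to the particles that methylate ribosomal RNA. *byn-1*, the bystin of small subunit assembly, moved the other way, at 1.13, and so did *cir-1*, at 0.87. The lower count was 11 without strong IV, 9 without strong V, 12 without control I or V and 13 without control III, and the higher count 3 without strong V or control IV. Aminoacyl-tRNA synthetases, which load amino acids onto tRNAs, were lower for 9 of 31 and higher for 3 (5 lower without strong V or control V, and 1 higher without strong IV, strong V, control I, control IV or control V). The proline enzyme *pars-1* (−0.85), the lysine enzyme *kars-1* (−0.75) and the phenylalanine enzyme *fars-1* (−0.73) fell, and the leucine enzyme *lars-1* rose (0.91). Among cytosolic ribosomal proteins 5 of 76 were lower and 0 higher, near the 5.59% of all genes, with a median of −0.11. That count was 2 without strong I or control I, 0 without strong V, 3 without control III and 1 without control IV or V, and 0 were called after quantile normalization.

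Lists of mitochondrial ribosome and respiratory chain genes differed in how far strong III took part. Of 70 mitochondrial ribosomal protein genes 33 were lower and 1 higher with all arrays, and 54 were lower without strong III. Of these, 28 were lowered on all 4 strong arrays and 24 were not shared by strong III. The list medians were −0.47, −0.15, −0.58 and −0.84 on strong I, III, IV and V, with strong III nearest control. The count was 14 without strong IV, strong V or control V and 18 without control III. *mrpl-12* had log2 values of 7.72, 8.1, 7.56 and 7.14 on the strong arrays, against 8.67, 8.55, 8.5 and 8.97 on the control arrays (difference −1.04 ± 0.18), *mrpl-15* differed by −1.03 and *mrps-34* by −0.98. *mrps-28* had log2 values of 6.22, 6.74, 5.58 and 5.61 on the strong arrays, against 7.07, 7.27, 6.74 and 7.04 on the control arrays, and there strong III reached the lowest control array.

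Of 33 complex I subunits and assembly factors other than *nuo-5* 3 were lower and 0 higher, and without strong III 14 were lower. Of the 33, 12 were lowered and not shared by strong III, whose median was 0.05 where the other strong arrays had −0.13, −0.4 and −0.79. The count was 1 without strong IV, strong V, control I or control IV. *nduv-3*, a subunit of the module that binds NADH, had log2 values of 6.27, 6.67, 6.0 and 5.73 on the strong arrays, against 6.77, 6.99, 6.87 and 6.66 on the control arrays, and strong III sat inside the control range. *ndab-1*, the acyl carrier subunit, had log2 values of 7.32, 7.65, 6.76 and 6.63 on the strong arrays, against 7.83, 7.67, 7.81 and 7.87 on the control arrays, where strong III lay just below the lowest control array. *nduf-2.2* had log2 values of 6.54, 5.51, 6.13 and 5.54 on the strong arrays, against 7.13, 7.04, 7.07 and 7.06 on the control arrays and was lowest on strong III. Complexes II to V had 5 of 39 subunits lower (12 without strong III, 3 without strong IV or V or any 1 control array), with *ucr-2.3* (−0.99), *asg-1* (−0.88) and *asb-1* (−0.77) lowered on all 4 arrays and *hpo-18* (−0.49) not shared by strong III, whose call was lost after quantile normalization or median centring. On strong I, III, IV and V the list medians of complexes II to V were −0.07, 0.09, −0.28 and −0.44. Those of 24 genes of the TCA cycle and pyruvate dehydrogenase were −0.03, 0.11, −0.31 and −0.46. In both lists strong I also lay near control. Of the 24 genes 5 were lower (8 without strong III, 3 without any other single array). The 3 largest of these falls, *sucg-1* (−1.24), *sucl-2* (−0.92) and *suca-1* (−0.8), are subunits of succinyl-CoA ligase. *sucl-2* had log2 values of 8.69, 8.65, 8.43 and 8.0 on the strong arrays, against 9.26, 9.43, 9.38 and 9.39 on the control arrays, so that strong III took part in this fall.

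Protein import into mitochondria also set strong III apart. Of 20 import genes 0 were lower by limma with all arrays (7 at an unadjusted p under 0.05), and 7 were lower without strong III, none of them shared by it. Strong III had a list median of 0.13, the other strong arrays −0.2, −0.46 and −0.55. One import gene rose on all 4 arrays, *timm-23*, which forms the inner membrane channel, with log2 values of 10.45, 10.36, 10.09 and 10.53 on the strong arrays, against 9.34, 9.5, 9.56 and 9.49 on the control arrays. In the mitochondrial unfolded protein response 1 of 16 genes was higher, its regulator *atfs-1* (0.63 ± 0.16), and 1 lower, the chaperone *hsp-60* (−0.49 ± 0.15). The lower count was 2 without strong III and 0 without any other single array, and *hsp-60* was not called after quantile normalization or median centring.

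**Figure D4:**
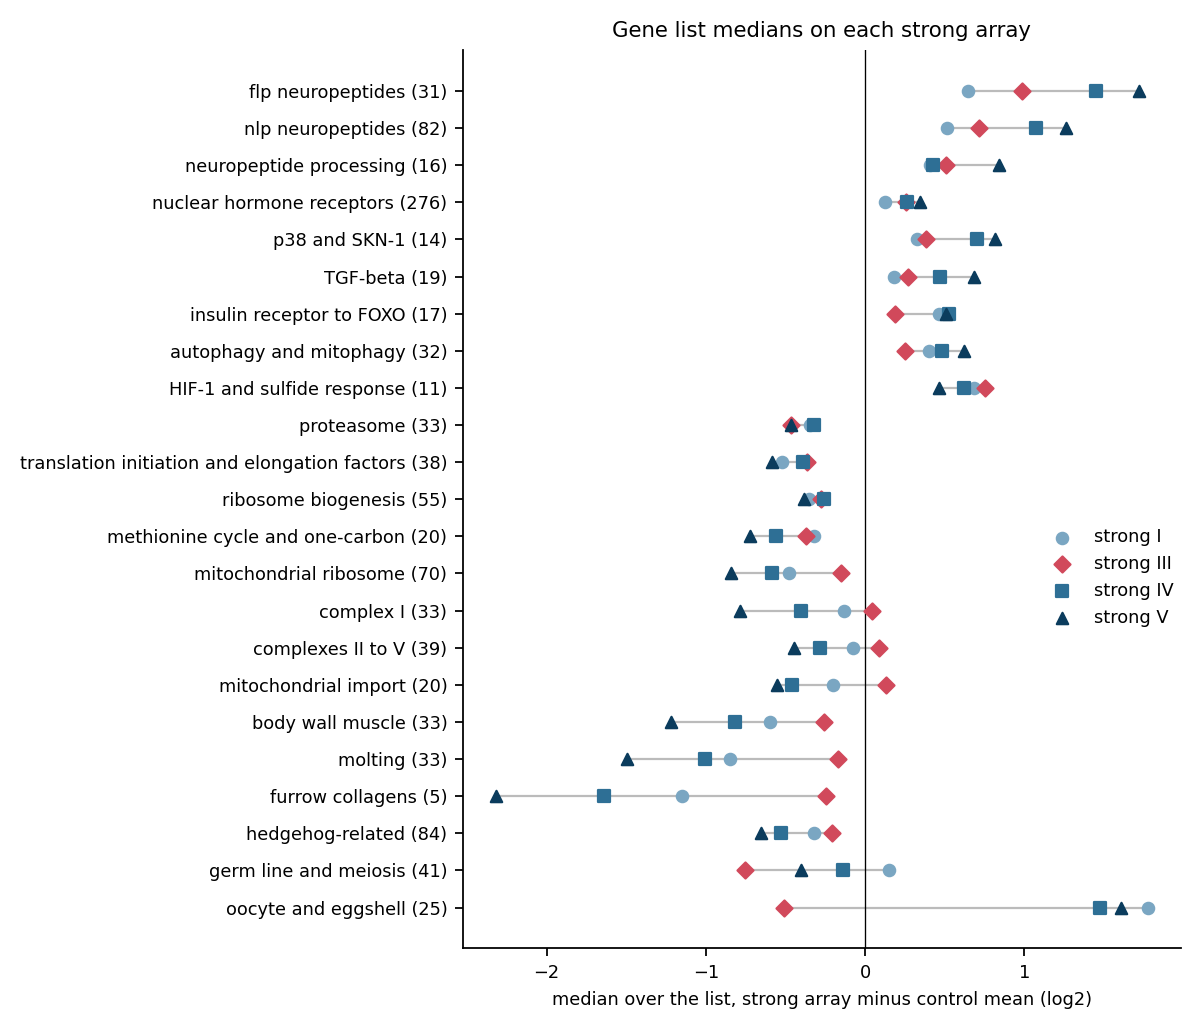
Median over each gene list (number of genes tested in parentheses) of the difference from the control mean (horizontal, log2), with 1 marker per strong array. Strong III (red diamond) lies with or close to the other strong arrays for neuropeptides, proteasome, translation factors and ribosome biogenesis, and nearer 0 or on the other side of it for complex I, mitochondrial import, molting and oocyte genes.

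Lists of epidermal genes that build and shed the cuticle differed in how far strong III took part. Of 33 molting genes 12 were lower and 0 higher, and 21 were lower without strong III (4 without strong IV, strong V or control III, and 5 without control IV). The list medians were −0.85, −0.17, −1.0 and −1.5. *mlt-8* had log2 values of 9.07, 9.64, 8.38 and 7.48 on the strong arrays, against 10.098, 10.38, 10.99 and 10.21 on the control arrays and was lowered on all 4 arrays. *mlt-10* had log2 values of 5.79, 7.42, 5.81 and 4.3 on the strong arrays, against 7.56, 7.97, 7.73 and 7.05 on the control arrays, and its value on strong III lay among the control arrays. The astacin proteases *nas-36* (−1.8) and *nas-37* (−1.83), which digest the old cuticle, were lowered on all 4. Of all 36 astacin proteases 11 were lower, each of them on all 4 strong arrays, 1 further gene was lowered and not shared by strong III, and 3 were higher (7 lower without strong IV, strong V or control IV, and 1 higher without strong V). Of 5 furrow collagens, which shape the rings of the cuticle, 0 were called by limma with all arrays (4 lower at an unadjusted p under 0.05), 4 were lower without strong III, and the medians were −1.15, −0.25, −1.64 and −2.32. *dpy-2*, one of these 4 and chosen after its values were seen, had log2 values of 8.2, 9.18, 8.02 and 6.76 on the strong arrays, against 9.16, 10.001, 10.12 and 8.85 on the control arrays.

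Hedgehog-related and patched-related genes, which in nematodes serve the epidermis and molting, were lower for 22 of 84 and higher for 3, and lower for 35 without strong III. The count was 12 without strong IV, control III or control IV, and 14 without strong V. *wrt-4* had log2 values of 6.69, 7.45, 5.93 and 4.35 on the strong arrays, against 8.16, 8.95, 8.86 and 7.81 on the control arrays, *ptr-16* differed by −1.98, *grd-14* by −1.97 and *grd-5* by −1.93. *grd-13*, among the 10 largest falls not shared by strong III, had log2 values of 5.93, 7.71, 6.25 and 5.67 on the strong arrays, against 8.25, 7.67, 7.69 and 8.42 on the control arrays. Zona pellucida proteins of the cuticle were lower for 3 of 39 and higher for 1 (0 higher without strong IV, strong V, control I or control V), and the lower count moved with single arrays (9 without strong III, 6 without strong I, 5 without control IV and 1 without strong V, control I or control V), with *cut-2* at −2.04. Of 170 cuticle collagens 44 were lower (25.9%, beside 5.59% of all genes) and 13 higher (7.65%, below the 8.69% of all genes). The lower count was 29 without strong IV, and the higher count 7 without strong IV and 8 without control III. The collagen medians were −0.17, −0.31, −0.51 and −0.96 on strong I, III, IV and V, so that strong I was the array nearest control. Of the 170, 38 were lowered on all 4 arrays and 7 were lowered and not shared by strong III. *col-180* (−3.52), *col-145* (−2.95), *col-156* (−2.94) and *col-170* (−2.72) were among the 15 largest falls on all 4 arrays, and *col-145* had log2 values of 6.6, 5.72, 4.47 and 4.77 on the strong arrays, against 8.57, 7.66, 8.35 and 8.8 on the control arrays.

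Body wall muscle genes were lower in 23 of 33 cases, and without strong III 29 were lower and 1 higher. The count was 13 without strong IV or control V, 14 without control I or control IV and 15 without strong V, and the medians were −0.6, −0.26, −0.82 and −1.22. *dim-1* had log2 values of 8.86, 9.39, 8.72 and 8.12 on the strong arrays, against 9.95, 9.8, 10.06 and 10.13 on the control arrays (difference −1.21 ± 0.21). The troponin I gene *tni-1* differed by −1.16, the calponin-like *cpn-3* by −1.21 and *unc-95*, an attachment protein, by −1.09. Genes of the pharyngeal cuticle and glands went both ways, 9 of 22 lower and 5 higher, with *abu-14* (−1.9) and *abu-15* (−2.58) against *phat-3* (2.39) and *phat-8* (1.87).

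Strong III stood apart in genes of oocytes, eggshell and yolk. Of 25 oocyte and eggshell genes 8 were higher with all arrays and 24 without strong III, and 21 were raised and not shared by strong III (5 without strong IV or strong V). The medians were 1.78, −0.51, 1.48 and 1.6 on strong I, III, IV and V. *cpg-2*, an eggshell proteoglycan, had log2 values of 10.29, 6.98, 10.07 and 10.34 on the strong arrays, against 7.23, 7.0, 7.04 and 6.76 on the control arrays, and strong III lay within the control range. *puf-5*, an RNA-binding protein of oocytes, had log2 values of 7.95, 4.66, 7.72 and 7.86 on the strong arrays, against 4.86, 4.19, 4.29 and 4.16 on the control arrays. The 3 genes raised on all 4 arrays were the eggshell genes *perm-4* (2.88, strong III 1.01) and *cpg-3* (2.87, strong III 0.94) and the yolk receptor *rme-2*, which had log2 values of 6.41, 4.2, 6.06 and 6.0 on the strong arrays, against 4.09, 4.16, 3.55 and 3.98 on the control arrays, so strong III passed the highest control array by little. Of 5 yolk protein genes 3 and of 5 adult collagen genes 3 counted as raised on all 4 arrays, by margins on strong III that differed. For the yolk gene *vit-2* the log2 values were 8.73, 3.89, 9.88 and 8.3 on the strong arrays, against 3.88, 2.89, 3.05 and 3.71 on the control arrays, with strong III barely above the highest control array. *vit-5* had 7.26, 3.73, 10.71 and 7.3 on the strong arrays, against 2.78, 2.46, 2.38 and 2.48 on the control arrays, and its value on strong III was 1.21 above the control mean. *col-19*, a collagen of the adult cuticle, had 9.29, 3.44, 8.22 and 6.15 on the strong arrays, against 3.09, 2.67, 2.65 and 2.93 on the control arrays. The shares of strong III were 0.2 for *vit-5*, 0.09 for *vit-6* and *vit-2*, 0.16 for *col-143*, 0.08 for *col-119* and 0.12 for *col-19*.

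Among the 10 largest rises not shared by strong III, B0024.4 had log2 values of 9.37, 5.4, 9.79 and 9.86 on the strong arrays, against 6.06, 4.75, 4.26 and 4.17 on the control arrays, D1054.10 of 7.47, 2.88, 7.22 and 6.45 on the strong arrays, against 3.07, 2.73, 2.64 and 2.24 on the control arrays and its neighbour *ule-3* of 7.86, 2.99, 7.45 and 7.0 on the strong arrays, against 2.97, 3.2, 3.19 and 3.05 on the control arrays. In each, strong III lay within the control range and the other strong arrays well above it. C39D10.7 (4.15 as the mean of strong I, IV and V minus control), *col-8* (3.97), the aspartyl protease *asp-17* (3.74), Y47H9C.1 (3.61), the lectin *clec-87* (3.59) and T28A11.19 (3.51) followed, with strong III at 0.33, −0.04, −0.06, 1.04, 0.29 and 0.28. Y47H9C.1 was thus above the control mean on strong III too, but below control III (4.59 against 4.63). The largest falls not shared by strong III were those of the nematode-specific peptide genes *nspb-7* (−2.9, strong III −0.48) and *nspb-10* (−2.83, strong III −0.58), ZC123.1 (−2.42, strong III −0.57) and *mlt-10*.

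Genes of germ line and meiosis were lower where they were called with all arrays, but most of these calls depended on single arrays. Of 41 genes of germ line and meiosis 5 were lower and 0 higher (1 higher without strong III), with medians of 0.15, −0.75, −0.14 and −0.4 on the strong arrays, so that strong III was the lowest. The count of lower genes was 8 without strong I, 3 without strong IV, 2 without control III, and 1 without strong III, strong V, control I or control V. *glh-1*, a Vasa-like helicase of P granules, had log2 values of 6.4, 5.66, 6.16 and 5.19 on the strong arrays, against 7.1, 7.05, 6.86 and 7.25 on the control arrays (difference −1.21 ± 0.24). The P granule genes *pgl-1* and *pgl-3* differed by −0.74 and −0.85, and the Argonaute *csr-1* by −0.62, with the lowest strong value on strong III for each. In all, 18 genes were at least 1 below the control mean on strong III while the other strong arrays were at or above it, 6 of them raised and not shared by strong III, and 2 genes showed the opposite. Of 52 sperm genes 1 was higher (2 without strong III) and 0 lower (1 without control V). Of 62 DNA replication and mitosis genes 1 was higher (1.61%, beside 8.69% of all genes) and 4 lower (6.45%, near the 5.59% of all genes). The counts were 5 higher without strong III, 0 higher without any other single array, and 2 lower without strong IV, strong V, control III, control IV or control V.

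**Figure D5:**
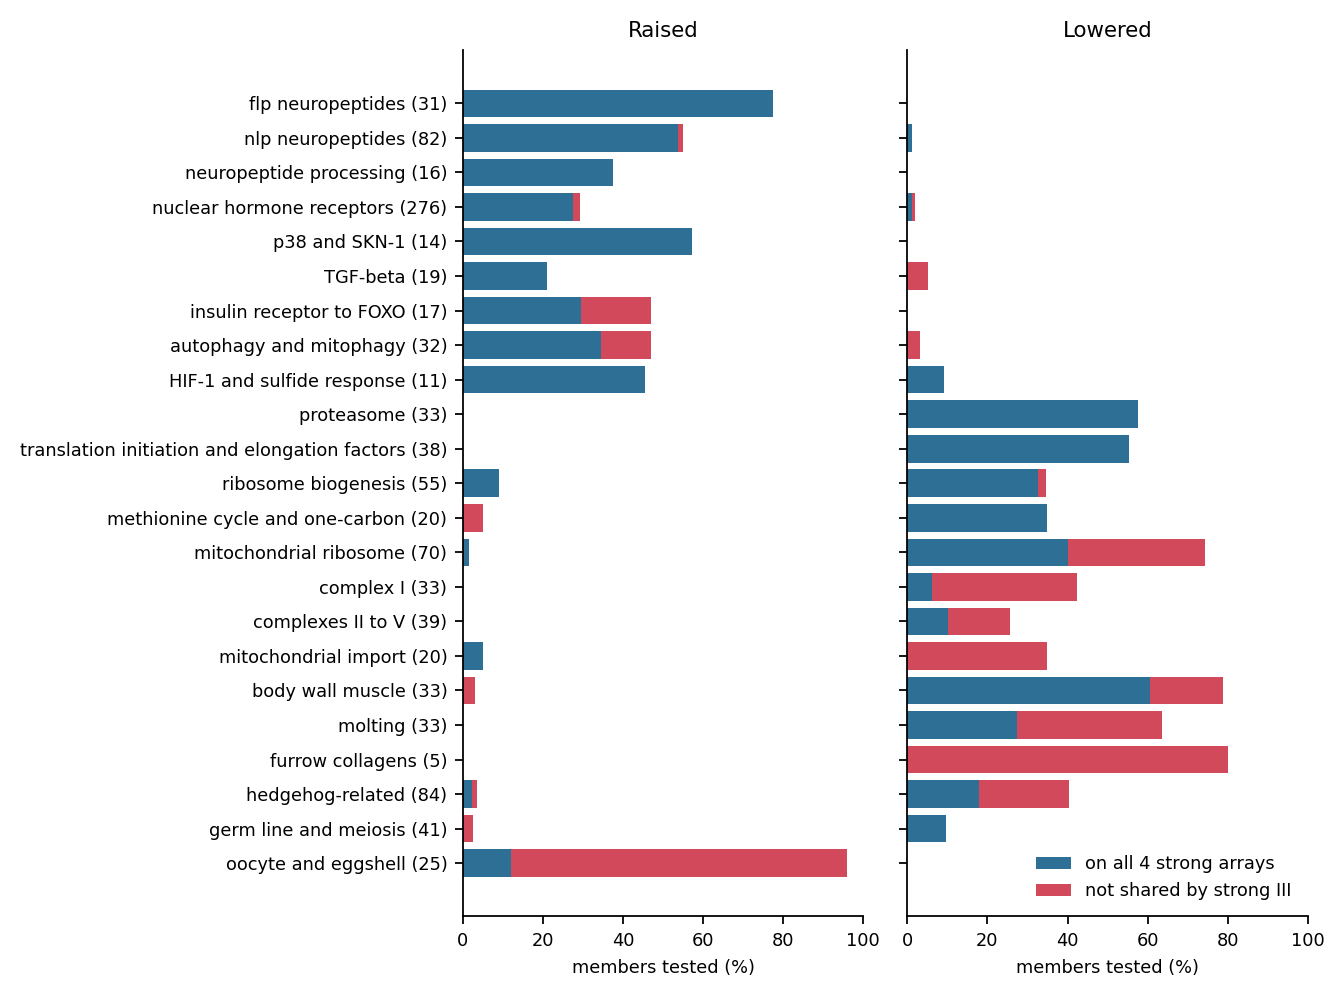
Share of each gene list (horizontal, % of the members tested, whose number is in parentheses) that was raised (left) or lowered (right), on all 4 strong arrays in blue and not shared by strong III in red. Neuropeptide, proteasome and translation lists are nearly all blue, and oocyte, furrow collagen and mitochondrial import lists are mostly or wholly red.

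Genes of lipid and one-carbon metabolism included falls on all 4 strong arrays. *fat-7*, a stearoyl-CoA desaturase and the largest fall among genes lowered on all 4 arrays, had log2 values of 4.8, 3.33, 6.63 and 3.65 on the strong arrays, against 8.63, 9.5, 9.29 and 9.51 on the control arrays, a difference of −4.63 ± 0.61, and strong III was the lowest array. The peroxisomal acyl-CoA oxidase *acox-1.2*, from the pathway that shortens ascaroside pheromones, had log2 values of 3.85, 5.66, 4.01 and 4.14 on the strong arrays, against 7.51, 7.89, 7.08 and 8.06 on the control arrays. Its neighbours *acox-1.4* and *acox-1.1* differed by −1.9 and −0.76. Of 18 lipid-binding genes 3 were higher and 4 lower (2 lower without strong IV, strong V, control I or control III, and 1 without control V), with the fatty acid and retinol binding proteins *far-7* (1.66) and *far-2* (−1.39) at opposite ends. The desaturase *fat-3* moved the other way (1.28 ± 0.14), as did the acyl-CoA synthetase *acs-2* (1.4 ± 0.37). In the methionine cycle and one-carbon list 7 of 20 genes were lower and 0 higher (1 higher without strong III), all 7 on all 4 strong arrays, with medians of −0.32, −0.37, −0.56 and −0.72. *sams-1*, which makes the methyl donor S-adenosylmethionine, had log2 values of 8.21, 8.79, 8.49 and 8.15 on the strong arrays, against 9.998, 10.18, 9.69 and 10.06 on the control arrays. The methionine synthase *metr-1* differed by −1.52, the serine hydroxymethyltransferase *mel-32* by −1.48 and *pmt-2*, which methylates the head group of phosphatidylcholine, by −1.39.

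Immune genes were mixed. C-type lectins were higher for 22 of 247 (8.91%, near the 8.69% of all genes) and lower for 6 (2.43%, beside 5.59%). The lower count was 2 without strong IV and 3 without strong V, control III or control V. The largest rises were those of *clec-45* (3.51), *clec-42* (3.25) and *clec-17* (3.14), all shared by strong III. The lysozyme *lys-7* rose (2.75) and the lysozyme *ilys-5* fell (−2.89). *irg-5*, an infection response gene, had log2 values of 6.1, 2.9, 4.65 and 3.02 on the strong arrays, against 7.52, 7.87, 9.57 and 6.97 on the control arrays and a wide spread in both groups. Its call was lost without strong III (adjusted p = 0.0501 by limma), strong V, control III or control IV. *irg-1* differed by 2.38. The saposin-like antimicrobial peptides *spp-17* and *spp-4* fell (−2.43 and −2.41), and *spp-6* rose (1.3).

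Tissue markers fixed as short lists give the tissue signal in the same whole larvae. Neuron markers were higher for 3 of 7 (medians of 0.4, 0.47, 0.69 and 1.16 on strong I, III, IV and V) and intestine markers for 2 of 7 (1 without any 1 strong array, control IV or control V), with the intestinal GATA factor *elt-2* at 1.57. Epidermis markers were lower for 2 of 6 (−0.57, −0.32, −1.44 and −1.77) and body wall muscle markers for 2 of 4 (4 without strong III, 1 without strong V or control III, and 0 without strong IV, control I, control IV or control V). Pharynx markers had 0 of 5 called by limma, with or without strong III (1 at an unadjusted p under 0.05 with all arrays). Germ line markers were lower for 3 of 6 (1 without strong III, strong V, control I or control V), and oocyte markers were higher for 3 of 5 (5 without strong III), at medians of 2.47, −0.03, 2.12 and 2.06. The early embryo list had 1 of 42 genes higher, *sdz-35* (0 without strong IV, strong V, control I, control III or control V), and medians of −0.11, −0.1, −0.09 and −0.05. The part of the age of the larvae in the differences above was not tested.

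The classes differed in level and in position on the chromosomes. Genes raised on all 4 arrays had a median log2 level of 5.21 on the control arrays and genes lowered on all 4 of 7.47, against 4.53 and 7.17 for raised and lowered genes not shared by strong III and 3.46 for all named genes. Among the chromosomes, raised genes were densest on V, where 8.78% of 6084 genes were raised on all 4 arrays, and least dense on chromosome I (6.23% of 3257). Genes lowered on all 4 arrays were densest on chromosome I (6.29%) and least dense on V (3.90%). The other chromosomes did not all follow this opposite order. Chromosome X had 6.97% raised and 3.98% lowered, and chromosome III had more of both, 7.83% and 6.14%. Raised genes not shared by strong III made up 1.39% of chromosome X, against 2.19% to 2.81% of each autosome. Of 1949 placed genes raised on all 4 arrays 24.1% had a neighbour of the same class, where 14.5% of all genes lay next to such a gene. For genes lowered on all 4 arrays these shares were 14.5% and 9.21%, for raised genes not shared by strong III 10.1% and 4.32%, and for lowered ones 6.51% and 4.06%.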

How the data were processed

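Affymetrix *C. elegans* Gene ST arrays measured total RNA, cleared of small RNA and treated with DNase, from whole L3 larvae washed off 3 large plates per sample. The authors summarised the probes by RMA. The methods name the oligo package in R for the comparison with mild RNAi and Partek Flow for that with lutein, and do not say which gave the deposited table. The deposited values are log2 intensities of 29317 probe sets on 12 arrays (1.32 to 14.49, array medians 3.41 to 3.57). The genome build is not given in the sources used here, and 1 further replicate that the methods left out was not analysed here. The labels put the arrays into strong RNAi, mild RNAi and control, 4 each, with replicates I, III, IV and V, and the number of arrays limits the precision. P-values set a difference between groups against the spread between these samples.

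From these values, limma 3.58.1 in R 4.3.3 fitted 3 group means over all 12 arrays with no covariate, and the Benjamini-Hochberg adjustment ran over all 29317 probe sets (threshold 0.05). Simulated data with known changes were used to check the fit. A gene was read by its brightest probe set among 25546 with exactly 1 symbol in the platform annotation, of which 25495 matched a RefSeq gene, and 646 probe sets with several symbols and 3125 with none were not named. The errors given with ± after a difference are standard errors of the fit. The direction is strong minus control throughout, on the log2 scale. Chromosomes and neighbours came from the RefSeq gene table of WBcel235.

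Named genes were *nuo-5*, genes the study names for these arrays, the 15 largest rises and falls on all 4 strong arrays, the 10 largest of each not shared by strong III, and up to 4 called members per list. *dpy-2* was chosen after its values were seen, and *samp-1* and *nanp-1* stand at the edge of the split. The 79 gene lists, the split by strong III and all members were chosen with earlier results of these data known, and 61 of the lists are described. The bounds of the strong III share (0.25, 0.5 and 1) were set after its values were seen. Alternatives were the replicate block, the 8 arrays alone, quantile normalization, median centring, a filter on dim probe sets, array weights, intensity trend with robust estimation, averaging all probe sets of a gene, stricter thresholds and each array left out. Promoter sequences were not used here.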

Additional observations from a re-analysis of the deposited data

Results flagged for a closer look

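Of 414 groups of 4 arrays, 2 per named gene, 24 had 1 array far from the other 3, measured as its gap to the nearest other array divided by the range of the group and set against Dixon's critical value for 4 arrays. Chance flags about 1 in 20 groups. Strong III was the array in 8 of the 24, control IV in 6, control III in 5, strong IV in 2, and strong I, strong V and control V in 1 each. The named genes include some chosen because strong III did not share their change, *puf-5*, *clec-87* and B0024.4 among them. The count for strong III therefore partly follows from that choice and cannot be set against chance.

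On strong III the oocyte and eggshell genes stood below the other strong arrays: *puf-5* (ratio 0.929), *cpg-2* (0.92), *perm-4* (0.906) and *cpg-3* (0.83). The lectin *clec-87* (0.924) and B0024.4 (0.891) were low on it in the same way, while *acox-1.1* (0.873) and *acox-1.2* (0.842) were high. *lin-41* was lowest on strong I (0.966), *gst-15* (0.839) and *pas-4* (0.852) were highest on strong IV, and *rpt-2* was lowest on strong V (0.871).

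In the control group, control III was high for *atfs-1* (0.904), Y47H9C.1 (0.898), *mel-32* (0.9), *pmt-2* (0.884) and *clec-42* (0.866). Control IV was low for Y48E1B.8 (0.962), B0205.13 (0.902) and *pgl-3* (0.842) and high for *fbxa-24* (0.854), *nanp-1* (0.847) and *ins-11* (0.843), and control V was high for K01D12.8 (0.862).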

How the results depend on the processing

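*nuo-5* stayed lower and past the threshold under every alternative run (−1.45 to −1.34 with 1 array left out). With 1 array left out, 1497 to 2617 genes were called higher and 829 to 1796 lower, and the lower count was 842 without strong IV, 829 without strong V and 941 without control V. An adjusted p under 0.01 left 970 higher and 489 lower, and a difference of at least 1 on the log2 scale left 1022 and 484. Array weights, which gave strong IV a weight of 2.32 and strong III 0.60, gave 2257 lower. Quantile normalization (1960 higher, 1738 lower), median centring (1969 and 1594) and the 8 arrays alone (1728 and 999) stayed within 1.5 times the counts. The block of replicate numbers gave 2515 higher and 1743 lower. Deviations of same-numbered strong and control arrays correlated at 0.311 for I, 6.78e-05 for III, 0.078 for IV and 0.121 for V. Those of differently numbered arrays correlated at −0.202 to 0.115. These values do not settle whether the numbers pair strong and control arrays, and the main fit used no block.

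With a margin of 0.5 beyond the control arrays, 592 genes were raised and 183 lowered on all 4 strong arrays. With strong III within 0.5 of control and the others at least 1 from it, 152 raised and 106 lowered genes were not shared by strong III. With another array in its place the counts were 369 and 195 for strong I, 40 and 21 for strong IV, and 38 and 14 for strong V. Of the uncalled study genes, *nlg-1* ran between −0.0387 and 0.166 with 1 array left out and turned negative without strong III or control III. *vps-35* ran between −0.0343, without control IV, and 0.0992, and was −0.0368 after quantile normalization, and the cause was not tested. Of the named genes, 31 were no longer called without strong V, 30 without strong IV, 26 without control V and 4 (*irg-5*, *csr-1*, *pgl-1* and *pgl-3*) without strong III. Quantile normalization moved the lower count of germ line and meiosis genes to 10, of zona pellucida genes to 8 and of complexes II to V to 3, and the higher count of TGF-beta and of synaptic adhesion genes to 3 each, and it ended 7 calls of named genes. The block moved the lower count of hedgehog-related genes to 34, of furrow collagens to 3 and of zona pellucida genes to 9. Without dim probe sets 7 complex I genes were lower. Probe sets of low signal, whose values lie near the floor of the arrays, can hide a change.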
